A study of Homo sapiens with 18 samples.

Results

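The 10 genes described here encode 3 colony-stimulating factors (CSF1, CSF2 and CSF3), the IL-6 family ligands IL6, IL11 and LIF, the IL-10 family cytokine IL24, the receptor chains OSMR and IL6ST, and the feedback inhibitor SOCS3. They were chosen by gene symbol from a count table of 19901 genes. Each symbol had 1 entry, and all 10 were among the 15475 genes with enough reads to be tested. CSF3 passed that filter through SCC-9 alone, so a difference between SCC-9 and the other lines was built into its passing. mRNA sequencing was performed on 18 libraries of 3 established head and neck squamous cell carcinoma (HNSCC) cell lines. Detroit 562 comes from a metastasis of a pharyngeal carcinoma, FaDu from a hypopharyngeal and SCC-9 from a tongue carcinoma. From each line came 3 control libraries, from cells left untreated, and 3 HGF libraries, from cells exposed for 16 h to 50 ng/mL HGF, the ligand of the receptor tyrosine kinase Met (the series record gives 48 h). Each line is a single example of HNSCC, so its libraries do not sample different tumors. The medium was MEM-α for Detroit 562 and FaDu, whereas the one for SCC-9, DMEM F12, held 400 ng/mL hydrocortisone, a glucocorticoid, so the medium and the line cannot be told apart wherever SCC-9 is compared with the others.

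The gene counts of each library summed to between 35304770 and 44003970. The highest sum is above the most reads per library that the paper reports, so these sums are not numbers of distinct reads. A gene's level is given as its read count or as CPM, its share of the library's summed counts after TMM scaling. CPM is given as mean ± SD of the 3 libraries of a group. The study's methods say that the experiment was repeated. The labels do not tie a library to a repeat or a culture, so p-values measure the spread between these libraries. All 8 epithelial markers examined were above 1 CPM in every group, although KRT14 reached only 1.23 ± 0.20 CPM in untreated Detroit 562. The haematopoietic genes PTPRC, CD3E, ITGAM and SPI1 and the fibroblast genes COL3A1, LUM and PDGFRB were under 1 CPM in every group. The other markers of these types were above it in untreated SCC-9: CD68 (54.9 ± 0.43 CPM), CD14 (8.89 ± 0.90), COL1A1 (77.9 ± 11.1), COL1A2 (10.7 ± 0.41) and DCN (1.64 ± 0.14). The summed level of the 6 haematopoietic markers in Detroit 562, nearly all of it CD68, was 20.7 to 40.9 CPM in control and 37.7 to 56.6 CPM with HGF, and that of the 6 fibroblast markers was 29.8 to 54.3 and 15.0 to 27.6 CPM. In SCC-9 the haematopoietic sum was 62.9 to 65.5 CPM in control and 64.5 to 65.8 with HGF. The fibroblast sum there was 77.5 to 99.4 and 60.4 to 81.3 CPM. The 3 endothelial markers summed to 2.56 to 8.34 CPM in untreated FaDu and 0.816 to 1.38 CPM in untreated SCC-9. The part of these markers in the HGF results and in the differences between lines was not tested. In SCC-9 the replicates were ordered alike in both groups for most of these genes. The first replicate had the highest level of its group for 7 of the 10 (CSF1, CSF3, IL6, IL11, IL24, OSMR and IL6ST), in control and in HGF-treated cells alike. The third had the lowest level of its group for CSF1, CSF3, IL6, IL11, LIF, IL24 and SOCS3, also 7 of the 10 and in both groups. The share of all genes ordered in this way was not determined, so these counts are not read as a property of the 10.

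Colony-stimulating factors are secreted proteins that act on myeloid cells: CSF1 on macrophages and their precursors through CSF1R, CSF2 (GM-CSF) through the CSF2RA and CSF2RB chains, and CSF3 (G-CSF) on neutrophil precursors through CSF3R. Ligands of the IL-6 family bind a receptor chain of their own and signal through the shared chain gp130, the product of IL6ST, which activates Janus kinases and the transcription factor STAT3. SOCS3 is a STAT3 target that binds gp130 and shuts the signal off. Squamous carcinomas are known to secrete several of these cytokines, which act on surrounding myeloid cells and fibroblasts and on the tumor cells themselves.

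In GRCh38 coordinates of the GENCODE 28 gene models that the counts refer to, CSF1 lies at chr1:109910242-109930992 and IL24 at chr1:206897443-206904139, both on the plus strand. OSMR occupies chr5:38845858-38945596 (plus), IL6ST chr5:55935095-55994993 (minus) and CSF2 chr5:132073790-132076170 (plus). IL6 lies at chr7:22725884-22732002 (plus), CSF3 at chr17:40015361-40017813 (plus), SOCS3 at chr17:78356778-78360077 (minus), IL11 at chr19:55364389-55370463 (minus) and LIF at chr22:30240447-30246851 (minus). Reads in exons and introns were counted over these whole extents, and no other gene of the table overlapped any of the 10 on its own strand.

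RefSeq promoter windows on GRCh38.p14, which run from 250 bases before to 50 bases after a transcript's start, were matched by symbol for 7 of the 10 genes; CSF1, CSF3 and LIF had none. Windows are shown for IL11 and SOCS3, which rose with HGF in Detroit 562, for IL24, which was higher with HGF in all 6 pairs of FaDu and SCC-9 libraries, and for IL6, the family's founding ligand, which was not called changed by HGF. RefSeq gives 2 windows for SOCS3, and the one whose start lies inside the counted gene is shown. That window and the IL6 window each lie wholly inside the extent of their gene and so hold no base upstream of it. Capitals mark matches, on either strand, to 5 short motifs: TGANTCA for AP-1, GGNNNTTCC for a form of the NF-kB site, TTCNNNGAA for STAT factors, TTGCNNAA for a form of the C/EBP site and TATAAA for the TATA box.
IL11, chr19:55370414-55370713, minus strand: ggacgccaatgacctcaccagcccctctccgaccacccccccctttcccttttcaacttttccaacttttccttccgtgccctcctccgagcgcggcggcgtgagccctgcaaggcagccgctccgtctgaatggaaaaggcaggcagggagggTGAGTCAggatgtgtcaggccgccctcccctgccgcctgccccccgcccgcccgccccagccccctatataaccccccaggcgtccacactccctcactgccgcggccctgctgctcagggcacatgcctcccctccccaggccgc
SOCS3, chr17:78359618-78359917, minus strand: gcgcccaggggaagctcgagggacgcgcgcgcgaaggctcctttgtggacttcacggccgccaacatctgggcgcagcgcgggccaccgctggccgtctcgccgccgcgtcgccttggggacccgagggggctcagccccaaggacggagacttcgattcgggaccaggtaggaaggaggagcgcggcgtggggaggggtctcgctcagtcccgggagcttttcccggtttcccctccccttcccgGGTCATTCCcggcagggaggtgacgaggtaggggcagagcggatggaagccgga
IL24, chr1:206897193-206897492, plus strand: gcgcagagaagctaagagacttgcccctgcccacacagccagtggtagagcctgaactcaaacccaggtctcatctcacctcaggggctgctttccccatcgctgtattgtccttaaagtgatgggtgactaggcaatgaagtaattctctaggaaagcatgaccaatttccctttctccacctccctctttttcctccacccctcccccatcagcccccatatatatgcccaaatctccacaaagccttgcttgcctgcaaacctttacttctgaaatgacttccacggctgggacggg
IL6, chr7:22726950-22727249, plus strand: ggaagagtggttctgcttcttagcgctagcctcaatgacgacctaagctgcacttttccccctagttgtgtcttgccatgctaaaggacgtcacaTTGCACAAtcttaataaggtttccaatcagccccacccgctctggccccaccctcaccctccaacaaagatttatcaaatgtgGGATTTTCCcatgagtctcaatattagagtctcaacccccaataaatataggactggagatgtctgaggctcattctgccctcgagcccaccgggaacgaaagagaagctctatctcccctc

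The IL11 window holds the AP-1 letters TGAGTCA, whose first base is at -96 from the start. The SOCS3 window holds GGTCATTCC at -4, and the IL6 window holds GGATTTTCC at -72 and the C/EBP form TTGCACAA at -155. The IL24 window matched none of the 5 motifs. Among the windows not shown, CSF2 held GGAGATTCC at -102, GGTAGTTCC at -85 and the STAT form TTCTTGGAA at -190. OSMR held one match each to the AP-1, NF-kB and C/EBP forms, and IL6ST and the other SOCS3 window held none. No match overlapped another. Of 35116 RefSeq windows of the same length, 7.71% held the AP-1 letters, 20.1% the NF-kB form, 7.66% the STAT form, 10.5% the C/EBP form and 11.5% the TATA letters. A match describes letters in a window and does not show that a factor binds there.

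**Figure D1:**
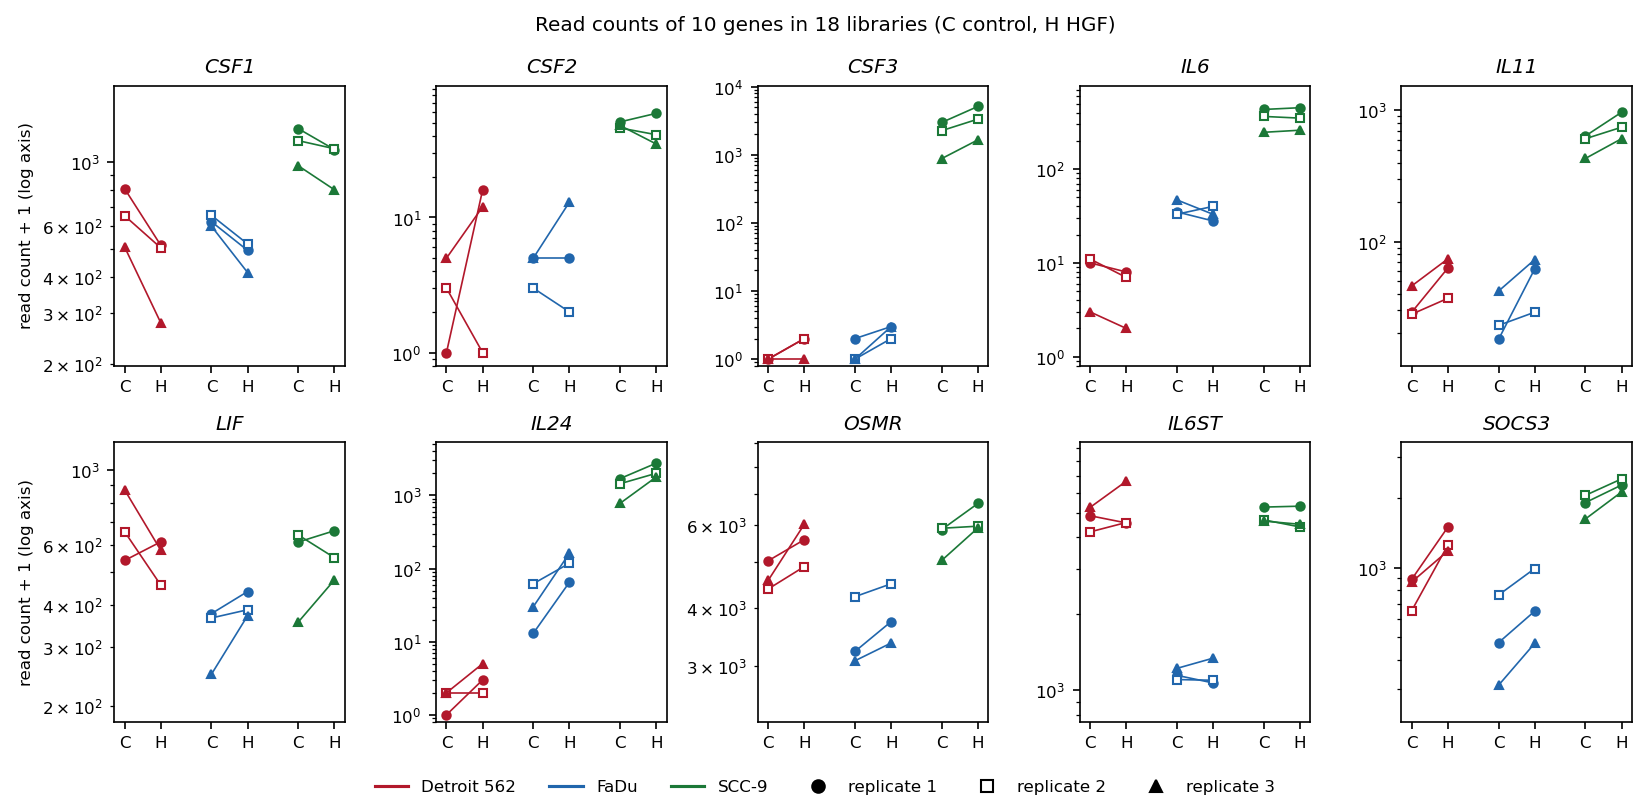
Read counts plus 1 (log axes) of the 10 genes in the 18 libraries, control (C) and HGF (H), with lines joining libraries of the same replicate number within a cell line. CSF3 reached 876 to 5108 counts in SCC-9 and no more than 2 in the other lines, and all 9 lines slope upwards for IL11, OSMR and SOCS3 and downwards for CSF1.

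The first comparison asked which of the genes responded to HGF in each cell line. In Detroit 562, HGF raised IL11 and SOCS3 and lowered CSF1. These 3 called genes of 10 stand beside 17.9% called among all genes tested, so the count itself is not read as a property of the group. In FaDu and SCC-9 edgeR called 0 of the 10, where it called 0.0258% and 0% of all genes. At an unadjusted p under 0.05, FaDu had 3 of the genes, beside 8.06% of all genes, and SCC-9 had 1, beside 4.14%, and DESeq2 called IL24 alone in FaDu and none in SCC-9. Calls required an adjusted p under 0.1 and a log2 fold change that reached 0.4 or -0.4.

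The replicate numbers were taken to pair the libraries of a line, and blocking the fit on that number (the blocked fit) changed several calls. It called 4 of the 10 in Detroit 562 (CSF2 in addition to the 3), beside 21.5% of all genes. In FaDu it called 3 (IL11, IL24 and SOCS3), beside 5.6%, and in SCC-9 also 3 (CSF3, IL11 and IL24), beside 1.97%. The median log2 fold change was 0.31 over the 8 genes with more than 3 counts per library on average in at least 1 Detroit 562 group, against -0.0056 over all genes tested. It was 0.27 over 9 genes in FaDu, against -0.0039, and 0.09 over all 10 genes in SCC-9, against 0.0013.

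**Figure D2:**
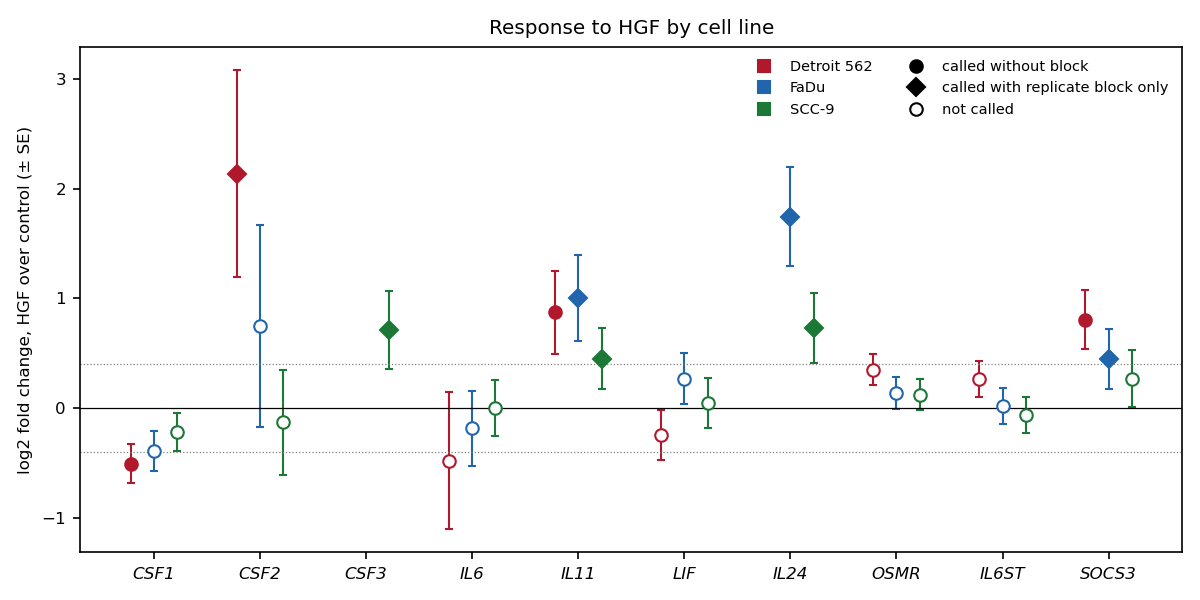
Log2 fold change of HGF over control (± SE, edgeR without the block) for each gene in Detroit 562 (red), FaDu (blue) and SCC-9 (green), with dotted lines at 0.4 and -0.4. Filled circles are called without the block (CSF1, IL11 and SOCS3 in Detroit 562), filled diamonds only with it, and CSF3 in Detroit 562 and FaDu and IL24 in Detroit 562 are left out because neither group exceeded 3 counts per library on average.

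Among the IL-6 family ligands, IL11, which supports platelet precursors and stromal fibrosis, was the one called. Its counts in Detroit 562 were 28, 27 and 45 in the control libraries 1 to 3 and 62, 36 and 73 with HGF. In FaDu they were 17, 22 and 41 in control and 61, 28 and 72 with HGF, and in SCC-9 637, 607 and 429 against 966, 743 and 607. The groups overlapped in each line, while HGF was the higher library in all 9 pairs of equal number, by 1.22-fold to 3.50-fold. Such agreement in all 9 pairs was found for 7.7% of all genes. The log2 fold change was 0.87 ± 0.38 (SE) in Detroit 562, at an edgeR adjusted p of 0.0990 that lay just inside the threshold and at 0.00404 in the blocked fit. FaDu gave 1.01 ± 0.39 (adjusted p 0.572, blocked 0.0118) and SCC-9 0.45 ± 0.27 (adjusted p 1, blocked 0.0308). In Detroit 562 the call was lost without control library 1 (0.70, adjusted p 0.301), control library 2 (0.77, 0.239), HGF library 1 (0.90, 0.141) or HGF library 3 (0.58, 0.358). It was also lost with upper-quartile scaling (adjusted p 0.102), without the filter (0.101) and in a fit of Detroit 562 alone (0.112).

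LIF and IL6 were not called in any line, with or without the block. LIF, which binds LIFR and gp130, had 539 to 871 counts in untreated and 455 to 612 in HGF-treated Detroit 562, with log2 fold changes of -0.24 ± 0.23 (SE) there, 0.27 ± 0.23 in FaDu and 0.05 ± 0.23 in SCC-9. In FaDu the 3 HGF libraries were each above the control library of the same number. IL6 stayed between 1 and 10 counts in the 6 Detroit 562 libraries, between 27 and 46 in FaDu and between 246 and 451 in SCC-9. Its control and HGF libraries overlapped in all 3 lines, and the log2 fold change in SCC-9, where its level was highest, was 0.0068 ± 0.25 (SE).

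Of the colony-stimulating factors, CSF1 was lower with HGF. In Detroit 562 its counts were 806, 650 and 506 in control and 513, 503 and 276 with HGF, in FaDu 620, 652 and 598 and then 493, 519 and 413, and in SCC-9 1303, 1184 and 969 and then 1103, 1110 and 800. HGF was lower in all 9 pairs, at 0.616 to 0.932 of the control level, a pattern shared by 8.42% of all genes. Only in FaDu did the groups not overlap, where 9.41% of all genes did not overlap either. On the log2 scale the change was -0.51 ± 0.18 (SE) in Detroit 562 (adjusted p 0.0474), -0.39 ± 0.18 in FaDu (0.609) and -0.22 ± 0.17 in SCC-9 (adjusted p 1). The blocked fit gave adjusted p-values of 1.05e-04, 0.00513 and 0.121 in the same order, and FaDu remained under the minimum fold change there. In Detroit 562 the call was lost without control library 1 (-0.41, adjusted p 0.197), control library 2 (-0.47, 0.135) or HGF library 3 (-0.31, 0.204), and in a fit of Detroit 562 alone (adjusted p 0.123).

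CSF3 was measured in SCC-9. Its counts there were 2971, 2252 and 876 in control and 5108, 3326 and 1649 with HGF, so the groups overlapped while each HGF library exceeded the control of its number, by 1.47-fold to 1.81-fold. The log2 fold change of 0.71 ± 0.36 (SE) was not called without the block (adjusted p 1) and was called with it (0.73 ± 0.07, adjusted p 5.29e-04). Without the block it ranged from 0.28 (without HGF library 1) to 1.08 (without control library 1) over the libraries left out, with 0.37 without control library 3 and 1.03 without HGF library 3, and was not called in any of these fits. In the other lines the 12 libraries held 0 to 2 CSF3 counts each, which is under the floor of 3 counts per library (0.0720 to 0.0829 CPM), and no fold change is given.

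CSF2 counts were few. Detroit 562 had 0, 2 and 4 in control and 15, 0 and 11 with HGF, FaDu 4, 2 and 4 and then 4, 1 and 12, and SCC-9 50, 45 and 47 and then 58, 40 and 34. The ratio of HGF to control in Detroit 562 was 4.65, with an exact 95% counting interval of 1.87 to 13.8 that covers counting error only. HGF library 2 held none. The log2 fold change of 2.14 ± 0.94 (SE) was not called without the block (adjusted p 0.107) and was called with it (2.14 ± 0.79, adjusted p 0.0383). DESeq2, without a block, called it too, at an adjusted p of 0.0610 with a prior and 0.0578 without. It passed the threshold when control library 3 (3.09, adjusted p 0.0702) or HGF library 2 (2.70, 0.0191) was left out of the fit without the block. In FaDu the value turned from 0.75 to -0.39 without HGF library 3, and neither FaDu nor SCC-9 was called in either fit.

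IL24, a cytokine of the IL-10 family that signals through pairs of IL20RA, IL20RB and IL22RA1, was higher with HGF in all 6 pairs of FaDu and SCC-9. The FaDu counts were 12, 61 and 29 before and 64, 117 and 161 after HGF, and SCC-9 had 1694, 1442 and 777 and then 2754, 2001 and 1781. In SCC-9 the HGF libraries were all above the control libraries, as for 17.4% of all genes in either direction, and in FaDu the highest control library, at 1.53 CPM, lay above the lowest HGF library, at 1.48 CPM. In the fit the log2 change was 1.74 ± 0.45 (SE) in FaDu (adjusted p 0.388, blocked 0.00104) and 0.73 ± 0.32 in SCC-9 (adjusted p 1, blocked 0.00516). DESeq2 called IL24 in FaDu at an adjusted p of 0.0218. Without FaDu control library 2 the edgeR value there was 2.51 (adjusted p 0.231). The Detroit 562 control libraries held 0, 1 and 1 counts and the HGF libraries 2, 1 and 4, which is under 3 counts per library on average, and no fold change is given.

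The receptor chains moved little. OSMR, which pairs with gp130 for oncostatin M and with IL31RA for IL-31, had 5042, 4388 and 4579 counts in untreated and 5594, 4900 and 6038 in HGF-treated Detroit 562. In CPM these were 120 ± 2.48 and 154 ± 26.0, and the groups did not overlap, as for 38.2% of all genes in that line. HGF was higher in all 9 pairs over the 3 lines, by 1.00-fold to 1.49-fold, as for 7.7% of all genes. The log2 fold change in Detroit 562 was 0.35 ± 0.14 (SE) at an adjusted p of 0.0795, under the minimum fold change of 0.4, and 4.84e-04 in the blocked fit. It exceeded that minimum without HGF library 1 (0.42, adjusted p 0.0639) or HGF library 2 (0.42, 0.0692). FaDu gave 0.14 ± 0.14 and SCC-9 0.12 ± 0.14. IL6ST gave 0.27 ± 0.16 in Detroit 562, which turned to -0.02 without HGF library 3, the library with the most IL6ST counts (6643), and passed the threshold without HGF library 1 (0.43, adjusted p 0.0553). FaDu and SCC-9 gave 0.02 ± 0.17 and -0.06 ± 0.16.

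SOCS3, the inhibitor, rose with HGF in Detroit 562. The control libraries held 892, 653 and 868 counts (20.7 ± 2.83 CPM) and the HGF libraries 1500, 1255 and 1183 (36.2 ± 0.774 CPM), and the groups did not overlap. FaDu had 474, 762 and 310 and then 649, 992 and 471, with overlap, and SCC-9 had 1912, 2055 and 1624 and then 2277, 2420 and 2125, without overlap. Among all genes, 38.2% did not overlap in Detroit 562 and 17.4% in SCC-9. HGF was higher in all 9 pairs, by 1.1704-fold to 2.01-fold, as for 7.7% of all genes. The log2 fold change was 0.81 ± 0.27 (SE) in Detroit 562 (adjusted p 0.0354, blocked 6.06e-07), 0.45 ± 0.27 in FaDu (0.652, blocked 0.00138) and 0.27 ± 0.26 in SCC-9 (adjusted p 1, blocked 0.0361, under the minimum fold change). The call in Detroit 562 was lost without control library 1 (0.82, adjusted p 0.105) or control library 2 (0.71, 0.131). Exact two-sided permutation tests of the 3 control against the 3 HGF libraries gave p = 0.1 for SOCS3 in Detroit 562 and SCC-9, the smallest p that such a design can give. For SOCS3 in FaDu the same test gave 0.4. In Detroit 562 it gave 0.2 for CSF1 and for IL11, which were called, and 0.1 for OSMR, which was not.

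Whether the response differed between lines was tested by the difference of the HGF contrasts, at an adjusted p below 0.1. Without the block edgeR found 0 of the 10 genes between any pair of lines, beside 0.239% of all genes for Detroit 562 against FaDu, 0.924% for Detroit 562 against SCC-9 and 0% for FaDu against SCC-9. At an unadjusted p under 0.05 there were 0, 1 (CSF2) and 0 of the 10, beside 11.6%, 15.4% and 2.18% of all genes, and DESeq2 found 0 in each case. In the blocked fit SOCS3 rose by more in Detroit 562 than in FaDu, beside 19.1% of all genes. Against SCC-9 the blocked fit found CSF1, CSF2, IL6ST and SOCS3, beside 26.9%, and between FaDu and SCC-9 it found none, beside 1.32%. Averaged over the 3 lines, HGF raised IL11 by a log2 of 0.78 ± 0.20 (SE, adjusted p 0.0165) and SOCS3 by 0.51 ± 0.15 (0.0298), 2 of the 10, beside 6.89% of all genes. The SOCS3 value fell to 0.38 without FaDu HGF library 2 and was then under the minimum fold change. With the block CSF2, CSF3 and IL24 joined them, 5 of the 10 beside 8.8%, although CSF3 and IL24 were near 0 in 1 or 2 of the lines averaged. CSF2 too was low, at 0 to 15 counts per library in Detroit 562 and 1 to 12 in FaDu. In SCC-9, where it had more counts, its blocked log2 fold change was -0.14 ± 0.31 (SE).

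The second comparison set the untreated lines against each other. SCC-9 held the highest level of 8 of the 10 genes (CSF1, CSF2, CSF3, IL6, IL11, IL24, OSMR and SOCS3), with no overlap with either other line, where 26.6% of all genes did so. All 10 genes were called between FaDu and SCC-9, beside 64.2% of all genes, each lower in FaDu, beside 33.5%. Between Detroit 562 and SCC-9 8 genes were called, beside 65.4% of all genes, 7 of them lower in Detroit 562, beside 33.9%, and between Detroit 562 and FaDu 6 were called, beside 61%, 4 of them higher in Detroit 562, beside 31.2%. Without control library 3 of SCC-9, 10 genes were called between FaDu and SCC-9 and 7 between Detroit 562 and SCC-9, LIF being lost. CSF3, which passed the filter through SCC-9 alone, is in each of these counts that involves SCC-9, so its part in them was built in. In such bulk libraries fewer cells with a transcript and less of it per cell cannot be told apart.

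The gaps were widest for CSF3 and IL24. The untreated Detroit 562 libraries held no count and those of FaDu 1, 0 and 0, against 2971, 2252 and 876 in SCC-9, which is 49.0 ± 24.7 CPM. SCC-9 was thus at least 641-fold higher than Detroit 562, taking 3 counts per library as the floor, and 6169-fold higher than FaDu by summed counts (exact 95% counting interval 1107 to 243704, from 1 count in FaDu). IL24 was at 777 to 1694 counts in SCC-9, 12 to 61 in FaDu and at most 1 in Detroit 562. The ratio of SCC-9 to FaDu was 38.8 (31.9 to 47.7) and that to Detroit 562 was 1849 (512 to 15276, from 2 counts). FaDu exceeded Detroit 562 in turn, with a ratio of 47.7 (12.9 to 399), and all 3 steps passed the test, with adjusted p-values of 7.21e-09, 5.86e-10 and 4.93e-04. The fitted FaDu level moved by more than 1.5-fold without FaDu control library 2, the highest of the 3 (log2 -6.02 in place of -5.25 against SCC-9, and for Detroit 562 against FaDu -4.58 in place of -5.35).

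IL6 was ordered SCC-9, FaDu, Detroit 562, at 8.42 ± 2.04, 0.90 ± 0.16 and 0.18 ± 0.11 CPM, and each step was called. SCC-9 stood 9.41-fold above FaDu (7.74 to 11.5 by counting error) and FaDu 4.98-fold above Detroit 562 (3.11 to 8.37). IL11 was at 13.5 ± 2.29 CPM in SCC-9, 0.87 ± 0.30 in Detroit 562 and 0.64 ± 0.29 in FaDu. SCC-9 was 15.8-fold above Detroit 562 (12.9 to 19.5), and the other lines did not pass the test against each other (log2 0.43 ± 0.42 (SE), adjusted p 0.367). CSF2 was at 1.15 ± 0.07 CPM in SCC-9, 14.4-fold above FaDu (7.59 to 30.6) and 22.4-fold above Detroit 562 (10.0 to 62.0), the latter 2 being within counting error of each other. The fitted log2 difference of Detroit 562 from SCC-9, -4.40, was -3.78 without Detroit 562 control library 1 and -5.35 without Detroit 562 control library 3. CSF1 differed less, with 28 ± 3.24 CPM in SCC-9, 16.8 ± 2.80 in Detroit 562 and 15.0 ± 1.20 in FaDu. The step from SCC-9 to Detroit 562 was called (log2 0.74 below, adjusted p 0.00104), and that between the last lines was not (adjusted p 0.434).

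LIF broke this order and was highest in Detroit 562, at 17.98 ± 5.38 CPM, against 13.0 ± 3.42 in SCC-9 and 7.96 ± 1.85 in FaDu. Detroit 562 and SCC-9 overlapped, and the log2 difference of 0.47 ± 0.23 (SE, adjusted p 0.0691) was lost without Detroit 562 control library 2 (0.48, adjusted p 0.110), Detroit 562 control library 3 (0.23, 0.371) or SCC-9 control library 3 (0.27, 0.291). IL6ST stood at 123 ± 15.5 CPM in Detroit 562 and 118 ± 7.22 in SCC-9, which did not pass the test (log2 0.06 ± 0.16 (SE), adjusted p 0.754), and at 27.8 ± 0.73 in FaDu, 4.44-fold lower than Detroit 562 (adjusted p 5.91e-09). OSMR was at 137 ± 6.85 CPM in SCC-9, 120 ± 2.48 in Detroit 562 and 85.0 ± 18.4 in FaDu. SCC-9 and Detroit 562 did not overlap, as for 80.7% of all genes, yet their difference did not pass the test (log2 -0.18 ± 0.14 (SE), adjusted p 0.252). FaDu was lower than both, although the step from Detroit 562 fell just under the minimum fold change without FaDu control library 3 (0.399, adjusted p 0.0288). SOCS3 was ordered SCC-9, Detroit 562, FaDu at 45.3 ± 3.74, 20.7 ± 2.83 and 12.6 ± 6.04 CPM. Each step was called, that from Detroit 562 to FaDu (log2 0.72 ± 0.27 (SE), adjusted p 0.0245) being lost without FaDu control library 3 (0.45, adjusted p 0.120).

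**Figure D3:**
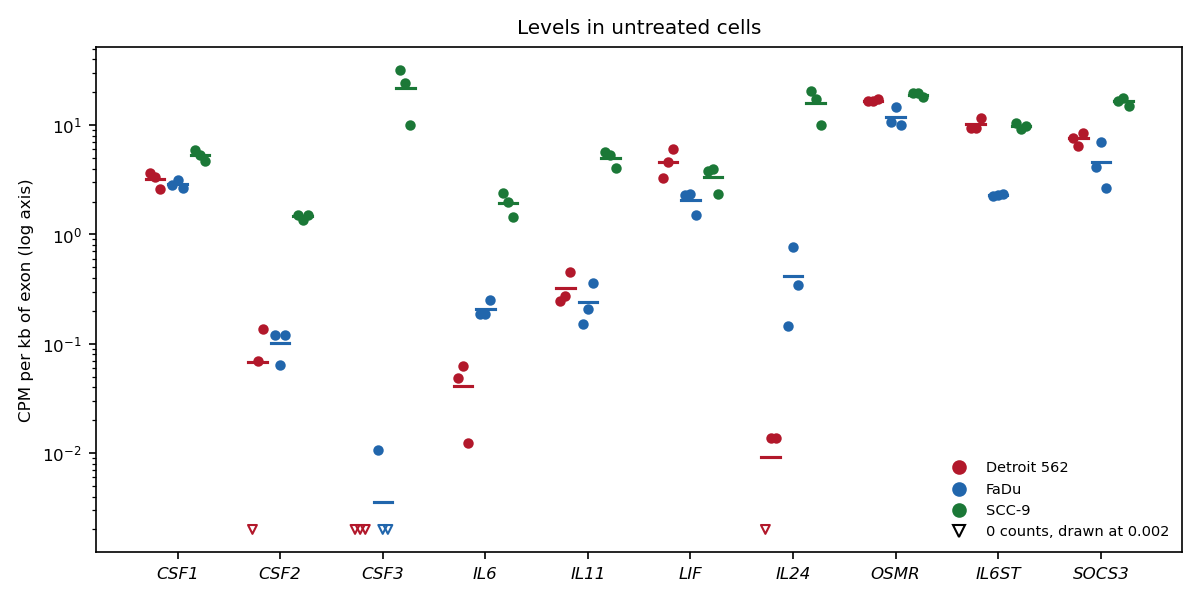
CPM per kb of exon (log axis) of the 10 genes in the 3 untreated libraries of each cell line, with bars at the group means and open triangles for libraries with 0 counts. In SCC-9 CSF3 had a mean of 22.1, the highest of the 10, whereas in Detroit 562 and FaDu OSMR was highest, at 16.8 and 11.8.

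Levels of different genes were compared per kb of exon. In untreated Detroit 562 the order was OSMR (16.8 CPM per kb), IL6ST (10.2), SOCS3 (7.58), LIF (4.65) and CSF1 (3.20), and the remaining 5 genes were at 0.324 or less. FaDu had the order OSMR (11.8), SOCS3 (4.59), CSF1 (2.87), IL6ST (2.30) and LIF (2.06), with the other 5 at 0.421 or less. In SCC-9 CSF3 (22.1) and IL24 (15.9) stood among OSMR (19.1) and SOCS3 (16.6), and no gene was below 1.46. Of the 7 secreted factors among the 10 genes, LIF and CSF1 thus had the highest levels per length in Detroit 562 and FaDu, and CSF3 and IL24 in SCC-9. With HGF CSF3 reached 36.2 ± 18.4 and IL24 26.4 ± 6.00 CPM per kb in SCC-9. Exon lengths came from GENCODE 44, and reads in introns were counted too, so these values are approximate.

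The receptor genes of the same cytokines were read from a list of 57 further genes of these pathways, 47 of which were tested. Ligand and receptor were not always measured in the same line. CSF3R held 0 to 3 counts over the 3 untreated libraries of each line, so that a receptor transcript for CSF3 was not detectable at this depth in SCC-9 or elsewhere. CSF2RB summed to 29 counts in untreated SCC-9 and 3 in each other line, while CSF2RA, the other chain, was lowest in SCC-9, at 0.12 ± 0.05 CPM against 5.16 ± 1.28 in Detroit 562 and 2.96 ± 0.51 in FaDu. CSF2RA lies in the pseudoautosomal region and has 2 entries in the table, of which the X entry was read. CSF1R was at 1.58 ± 0.34 CPM in SCC-9, 0.36 ± 0.44 in FaDu and 0.20 ± 0.21 in Detroit 562.

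The receptor genes IL6R, LIFR and IL11RA were measured in all lines. IL6R was highest in Detroit 562, at 28.8 ± 0.194 CPM, followed by FaDu at 14.3 ± 3.19 and SCC-9 at 11.7 ± 0.285, and LIFR followed the same order at 56.5 ± 2.95, 27.8 ± 7.46 and 16.2 ± 1.87. IL11RA was highest in SCC-9, the line with the most IL11, at 27.95 ± 1.84 CPM against 4.04 ± 0.69 in Detroit 562 and 1.70 ± 0.17 in FaDu. Its reads are uncertain, because GALT overlaps it on the same strand. Of the IL24 receptor chains, IL20RB was at 165 ± 17.3 CPM in SCC-9, 22.1 ± 0.80 in FaDu and 19.7 ± 1.95 in Detroit 562, with NCK1 overlapping on its strand, and IL20RA at 5.39 ± 0.70, 1.33 ± 0.75 and 10.4 ± 0.89. OSM, the ligand of OSMR, had 0 to 2 counts over the untreated libraries of each line.

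**Figure D4:**
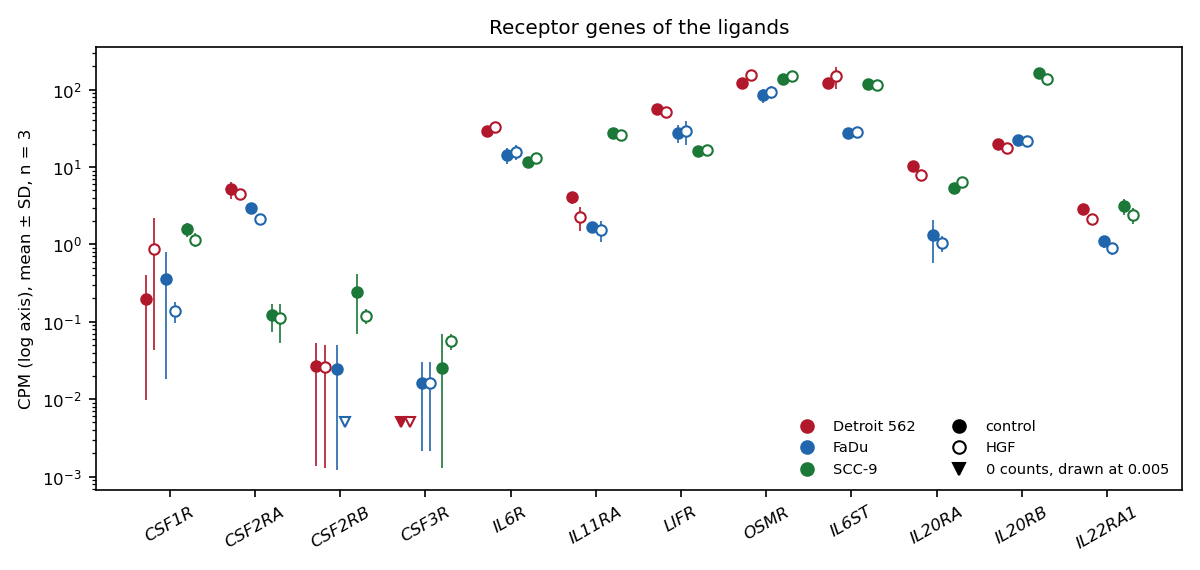
CPM (log axis, mean ± SD of 3 libraries) of the receptor genes in control (filled) and HGF-treated (open) cells of Detroit 562 (red), FaDu (blue) and SCC-9 (green). SD bars that would reach 0 are shortened to stay on the axis, triangles mark groups with 0 counts, and CSF3R reached at most 0.0559 CPM while OSMR was at 85.0 or more in every group.

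With HGF in Detroit 562, 5 of the 47 pathway genes tested were called, beside 17.9% of all genes, and the 47 had a median of 0.022 on the log2 scale. SOCS2, a further inhibitor of the SOCS family, rose from 6.22 ± 0.22 to 12.1 ± 2.06 CPM, a log2 fold change of 0.96 ± 0.16 (SE, adjusted p 0.00149). IL31RA, the partner of OSMR in the IL-31 receptor, rose from 2.82 ± 0.84 to 6.08 ± 1.84 CPM (1.11 ± 0.31, adjusted p 0.0164). IL27RA, the partner of gp130 for IL-27, rose by a log2 of 0.57 ± 0.09 (adjusted p 8.91e-04), and IL4R, an IL-4 receptor chain listed here as a STAT3 target, by 0.53 ± 0.09 (0.00143). IL11RA, the receptor of IL11, fell from 4.04 ± 0.69 to 2.26 ± 0.78 CPM (-0.83 ± 0.22, adjusted p 0.0134). Its reads are uncertain here too, through the overlap with GALT. These 5 calls held without any single library.

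With the block 11 of the 47 were called in Detroit 562, beside 21.5% of all genes, among them CSF1R and SOCS1, which rose, and IL22RA1, BCL3 and JUNB, which fell. CSF1R was at 0.875 ± 1.35 CPM with HGF, an SD above its mean. Of its 87 counts with HGF 80 lay in 1 library, and of its 22 in control 16 lay in 1 library. Without control library 3 or without HGF library 1 the count without the block was 10, and without HGF library 2 it was 8. In FaDu and SCC-9 edgeR called 0 of the 47, with 5 and 4 at an unadjusted p under 0.05, beside 8.06% and 4.14% of all genes. The blocked fit called TIMP1 (up), CEBPB and CSF2RA (both down) in FaDu, beside 5.6% of all genes, and none in SCC-9, beside 1.97%, and DESeq2 called IL4R in FaDu and none in SCC-9. STAT3 itself, called in no line, gave log2 fold changes of 0.02 ± 0.06 (SE) for Detroit 562, -0.05 ± 0.06 for FaDu and -0.10 ± 0.06 for SCC-9.

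Lastly, the genes most alike in pattern were sought for the members with at least 50 counts on average, by Pearson's r of log2 CPM over the 18 libraries after subtraction of each line's mean. These r values are a description, over libraries that share 3 cell lines and 1 count table. IL24 was closest to ANGPTL4 (r = 0.944) and VEGFA (0.927), and OSMR to CPM (0.961), the gene of carboxypeptidase M, and PDK1 (0.959). IL11 was closest to MFSD2B (0.949), SOCS3 to FLNC (0.926) and SEMA4B (0.897), and CSF1 to GPR85 (0.968) and BACE1 (0.951). For IL6ST these were RBPJ (0.926) and PICALM (0.922), for IL6 ZNF43 (0.900) and CDCA2 (0.871), and for CSF3 RP11-240B13.2 (0.860) and HHLA1 (0.859). CSF3 held at most 2 counts per library in Detroit 562 and FaDu, so its r values rest mainly on the SCC-9 libraries. In Detroit 562 IL24 held at most 4 counts per library and IL6 at most 10, so that line adds little to theirs. LIF had the least similar neighbours, ANKLE1 (0.765) and CNRIP1 (0.754).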

How the data were processed

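RNA was sequenced as single-end TruSeq Stranded mRNA libraries. According to the paper's methods and the submitters' processing notes, the authors demultiplexed reads with bcl2fastq 2.20.0.422, trimmed them with Cutadapt 1.16, aligned them to GRCh38.p12 with STAR 2.5.2b and counted them on the strand of GENCODE 28 genes with bedtools, and used DESeq2 1.22.1. The deposited table holds raw counts per gene. Introns and near-identical copies may therefore add reads to a gene.

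Tests used edgeR 4.0.16 under R 4.3.3, with limma 3.58.1 loaded: filterByExpr, TMM scaling and a quasi-likelihood fit of 6 groups over all 18 libraries, with Benjamini-Hochberg adjustment over 15475 genes. DESeq2 1.42.0, other scalings and filters, and fits without each library were alternatives. Calls needed an adjusted p below 0.1 and, between groups, a log2 change of 0.4 or more either way, as in the study's methods. Differences between responses needed the adjusted p alone. Replicate numbers come from the labels. Deviations from group means correlated at 0.161 to 0.563 between control and HGF libraries of equal number, in every pair, and at -0.169 on average, at most 0.218, otherwise. Deviations cancel out within a group, so the average of the unequal pairs is tied to the equal ones and adds no separate support. In Detroit 562, control library 1 with HGF library 2 (0.218) exceeded control library 2 with HGF library 2 (0.161). The numbers were taken to pair the libraries, which the labels do not state. Total counts were 35304770 to 44003970 per library. Intervals and floors cover counting error only. Scripts were tested on simulated data.

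Named genes were the 10 members, the called genes of a list of 57 pathway genes with their receptors, and for each member the 2 genes most alike in pattern. Some genes that this rule names are not reported here. The members and lists were chosen with earlier results of these data known.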

Additional observations from a re-analysis of the deposited data

Results flagged for a closer look

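The HGF response differed between lines for some genes in the fit blocked on replicate number, and for none of the 10 in the edgeR fit without it. The differences are given as log2 fold change in Detroit 562 minus that in the other line. For SOCS3 the difference from FaDu was 0.34 (blocked adjusted p 0.0446, without the block 0.740) and that from SCC-9 was 0.54 (0.00163, without the block 0.505). Against SCC-9 the difference was -0.30 for CSF1 (0.0658, without the block 0.609), 0.29 for IL6ST (0.0802, without the block 0.521) and 2.28 for CSF2 (0.0754, without the block 0.323). The CSF2 value rests on 0 to 15 counts per Detroit 562 library. Blocked calls of this kind were made for 19.1% and 26.9% of all genes in these comparisons.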

How the results depend on the processing

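Of 998 single-gene values under the alternatives, 936 kept their direction and their side of the threshold, 30 passed it, 19 fell below it and 13 changed direction. Blocked on replicate number, the genes called of the 10 were 3 in FaDu and 3 in SCC-9 (0 without it), 5 for the averaged effect (2 without it), 1 and 4 for the response of Detroit 562 against FaDu and SCC-9 (0 without it), and of the 47 pathway genes 11 in Detroit 562 (5 without it) and 3 in FaDu (0 without it). Over all genes the block raised the calls from 4 to 867 in FaDu and from 0 to 305 in SCC-9, where DESeq2 made 66 and 19. DESeq2, with or without a prior, called 1 of the 10 and 1 pathway gene in FaDu, and without a prior 4 for the averaged effect. A fit of only the lines compared called 1 in Detroit 562 and 1 for its response against SCC-9. With no minimum fold change the counts were 10 pathway genes in Detroit 562 and 4 for the averaged effect. With an adjusted p below 0.05 and a log2 of 1 they were 0 of the 10 in Detroit 562, 0 for the averaged effect and 1 pathway gene. Leaving out single libraries gave 0 to 5 of the 10 in Detroit 562 (0 without control library 1 or 2, 1 without HGF library 3, 5 without HGF library 2), 5 to 10 pathway genes and 2 to 4 for the averaged effect (4 without Detroit 562 HGF library 2). The cause of these shifts was not tested.

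Some log2 fold changes, none of them called without the block, changed direction when 1 library was left out. Their ranges over the libraries left out were, for HGF, -0.023 to 0.43 for IL6ST in Detroit 562 (turned without HGF library 3), -0.078 to 0.11 in FaDu (HGF library 3) and -0.14 to 0.0031 in SCC-9 (HGF library 2). CSF2 ranged from -0.39 to 1.21 in FaDu and from -0.37 to 0.014 in SCC-9 (HGF library 3 in both), and OSMR from -0.017 to 0.33 in FaDu (HGF library 2). In SCC-9 IL6 ranged from -0.20 to 0.18 and LIF from -0.15 to 0.18 (control library 3 or HGF library 1 for both). Between untreated lines CSF2 ranged from -1.55 to 0.018 for Detroit 562 against FaDu (control library 1 of Detroit 562) and IL6ST from -0.050 to 0.11 for Detroit 562 against SCC-9 (control library 3 of Detroit 562). The SOCS3 response of Detroit 562 against FaDu ranged from -0.077 to 0.73 (FaDu control library 2). Depth limits CSF2 in all lines, and IL6, IL24 and CSF3 in Detroit 562 and CSF3 in FaDu, where libraries held few reads.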
